A study of Mus musculus with 4 samples.

Results

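Wnt ligands, Frizzled receptors and R-spondins were followed across sections of the embryonic mouse head. All genes in the tables whose symbol begins with Wnt, Fzd or Rspo followed by a digit were taken, which gave 32 of 19465 genes: 19 Wnt ligands, 9 Frizzled receptors and 4 R-spondins. Fzd5 was not among the genes counted, so counts of Frizzled receptors leave it out. Of these, 29 had at least 100 unique molecular identifiers (UMIs, the counted RNA molecules) over all tissue spots. The other 3 were only counted: Wnt1 had 13 UMIs, Wnt8b had 42 and Wnt8a had 3.

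The samples were wild-type mouse heads (C57BL/6J in the study) at embryonic day 14.5 (E14.5) and 15.5 (E15.5), the days just before and after the palatal shelves fuse. Formalin-fixed paraffin sections were placed on Visium slides, on which each barcoded spot captures RNA from a patch of tissue larger than 1 cell, often of mixed cell types. There were 2 capture areas per stage, 1 with a single section (replicate 1) and 1 with 3 sections (replicates 2,3,4), and no treatment was given. A capture area is the sample here, since all its spots and sections went into 1 library. In stage tests p-values rest on the spread between the 2 areas of a stage. In region tests they rest on the spread between areas of the difference between inside and outside. Values for the areas are given in the order E14.5 replicate 1, E14.5 replicates 2,3,4, E15.5 replicate 1, E15.5 replicates 2,3,4.

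The areas held 989 to 2310 tissue spots, 6357 in all, and 15438992 to 109127953 UMIs. E14.5 replicate 1 was the shallowest, with a median of 6752 UMIs per spot against 45058.5 to 64051 in the other areas. Replicate 1 areas of both stages also went through an earlier version of the counting software, so version and kind of area cannot be told apart. Levels are given as CPM, the UMIs of a gene per 1000000 UMIs of the same spots. The assay does not scale to gene length, so levels are compared within a gene and not between genes.

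Wnt proteins are lipid-modified secreted ligands. They bind Frizzled receptors, and with the co-receptors Lrp5 and Lrp6 this stabilises beta-catenin, which acts with TCF/LEF factors on target genes such as Axin2 and Lef1; other Wnts, among them Wnt5a, act mainly through beta-catenin-independent and planar polarity routes. R-spondins bind Lgr receptors and the ubiquitin ligases Rnf43 and Znrf3, which otherwise remove Frizzled receptors from the cell surface. The pathway is known for roles in patterning the forebrain, in skin and tooth development and in growth and fusion of lip and palate.

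Tissue regions were set by marker genes that are not members. For each of 13 marker lists, the 5% of spots with the largest share of UMIs on the list formed the region (318 spots), and the UMIs inside and outside the region were summed in each area and compared by edgeR's quasi-likelihood test with the area as a block. The markers of a region were 4.67- to 57.5-fold higher inside than outside in 12 of the lists in every area tested. Those of endothelium were only 2.71- to 5.41-fold higher. The spots were chosen by these same markers, so a rise of them was fixed in advance and is no support for the region names. In whole sections, fewer cells of a type and less RNA per cell cannot be told apart, and both can move a CPM.

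The promoters of 4 genes that the results below turn on are shown first, as the 250 bases before the RefSeq start on GRCm38.p6, since the first 3 genes rose together in surface epidermis and the last fell there. Capitals mark each match to GCCNNNGGC, the palindrome known to be bound by AP-2 factors, which reads the same on both strands. The windows are chr11:103773925-103774174 (+) for Wnt3 (ENSMUSG00000000125), chr5:128600856-128601105 (+) for Fzd10 (ENSMUSG00000081683), chr1:74771642-74771891 (+) for Wnt6 (ENSMUSG00000033227) and chr6:91411354-91411603 (−) for Wnt7a (ENSMUSG00000030093).
Wnt3: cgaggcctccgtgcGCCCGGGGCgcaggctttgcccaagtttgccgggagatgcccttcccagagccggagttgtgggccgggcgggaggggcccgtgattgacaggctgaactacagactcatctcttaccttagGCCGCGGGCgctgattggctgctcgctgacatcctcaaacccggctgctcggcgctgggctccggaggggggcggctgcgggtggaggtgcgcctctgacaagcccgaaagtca
Fzd10: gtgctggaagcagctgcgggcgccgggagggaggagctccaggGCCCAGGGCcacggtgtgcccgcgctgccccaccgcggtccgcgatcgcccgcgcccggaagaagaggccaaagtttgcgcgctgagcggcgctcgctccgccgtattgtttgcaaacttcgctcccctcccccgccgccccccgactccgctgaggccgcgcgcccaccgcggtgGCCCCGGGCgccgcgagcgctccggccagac
Wnt6: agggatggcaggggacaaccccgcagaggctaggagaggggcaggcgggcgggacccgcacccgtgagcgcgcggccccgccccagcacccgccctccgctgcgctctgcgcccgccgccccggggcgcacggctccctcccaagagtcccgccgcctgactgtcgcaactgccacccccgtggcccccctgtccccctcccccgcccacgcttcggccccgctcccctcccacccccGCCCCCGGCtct
Wnt7a: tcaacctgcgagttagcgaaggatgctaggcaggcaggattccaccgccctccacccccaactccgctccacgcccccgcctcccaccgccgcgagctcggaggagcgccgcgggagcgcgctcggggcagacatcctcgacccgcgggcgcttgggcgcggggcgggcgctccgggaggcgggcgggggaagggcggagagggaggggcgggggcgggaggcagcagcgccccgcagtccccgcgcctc
The matches began 236 and 114 bases before the start in Wnt3, 207 and 31 in Fzd10 and 12 in Wnt6, and the Wnt7a window held none. By symbol, 22 of the 32 members had a promoter in the table. GCCNNNGGC was found in 12 of them, a gene with several starts being counted if any window held it, and in 13.7% of all 32851 promoters. Of the 10 members with a promoter that were higher in surface epidermis, 9 held it, against 3 of the other 12 members. The other 12 include Wnt1, Wnt8b and Wnt9b, not tested there. The median GC was 68.0% for the 10 and 71.8% for the other 12. This split follows the calls in the same data and was not tested. Promoters of members were GC-rich (median 70.8% GC against 52.4% for all), and among the 5587 promoters with at least 65% GC the share with a match was 36.9%. CTTTGA, the core known to be bound by TCF/LEF factors, searched on both strands, was in 3 of 22 members and in 13.8% of all promoters. Both motifs are matches of letters in a short window and were not tested as binding sites.

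Over the 13 regions, 357 tests of a member in a region were made, of which 81 passed an adjusted p of 0.1 as higher inside, 148 as lower inside and 128 did not pass. The rises were 22.7% of these tests and the falls 41.5%, where 18.8% and 22.2% of the tests of all genes passed as higher and lower. Of the 29 members tested in any region, 27 were higher in at least 1 of them. The exceptions were Wnt9a, which was lower in 3 regions and higher in none, and Wnt9b, which had enough UMIs for a test in 1 region and did not pass there. Wnt ligands made 42 of the rises in 188 tests, Frizzled receptors 31 in 117 and R-spondins 8 in 52, that is 22.3%, 26.5% and 15.4%, shares that lie around that of all genes. Surface epidermis, basal and oral epithelium and oral-palatal mesenchyme had the most rises. There 50%, 60.7% and 50% of members were higher, against 25%, 16.6% and 14.6% of all genes. In bone 17.9% were higher against 22.6% of all genes, and in cartilage 18.5% against 14.1%. Cortical neurons, GABAergic forebrain and radial glia had the most falls of members and also the largest shares of all genes that were lower. A spot may belong to several regions, and with spots of 1 region only the members had 80 rises and 136 falls. Those spots are a part of the same spots, so calls that pass there are not separate support. Counts of calls over all spots of a region stand beside the share of all genes tested that passed there, as the background. Counts in spots of 1 region only that lack such a share are not read as a result about the members. Levels said below not to overlap are those of members picked for their differences. The share of all genes without overlap is not given.

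**Figure D1:**
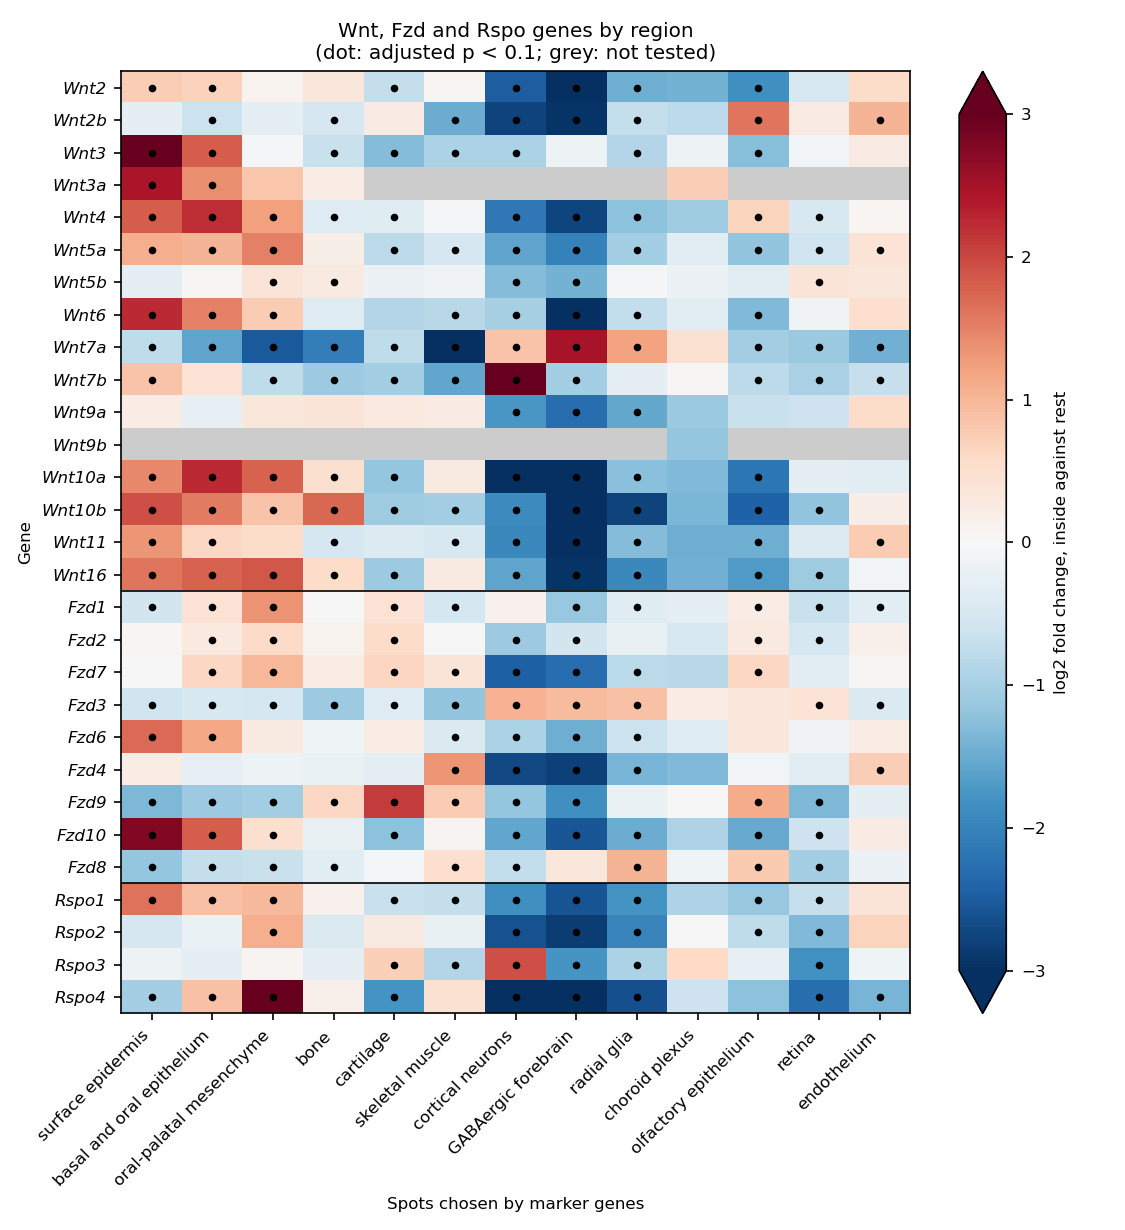
Log2 difference between spots inside and outside each of the 13 marker regions for the 29 members with at least 100 UMIs. Columns are regions, rows are genes, colour gives the fitted log2 difference, a dot marks an adjusted p under 0.1 and grey marks a gene not tested; Wnt7a, Wnt7b, Rspo3, Fzd3 and Fzd8 are the members with a rise in at least 1 of the 3 brain neuron and radial glia regions.

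Surface epidermis, marked by keratins of the differentiating layers (Krt1, Krt10) and Krtdap, Sbsn and Dmkn, held more Wnt ligands that were higher than any other region. Of 28 members tested there, 14 were higher and 6 lower, where 25% of all genes tested were higher and 24.6% lower, and the median log2 difference was 0.47 for members and 0.01 for all genes. Of 15 Wnt ligands, 11 were higher and Wnt7a alone was lower, while 2 of 9 Frizzled receptors were higher and 4 lower. Wnt3, a ligand of the beta-catenin route needed for gastrulation, stood at 69.7, 36.7, 67.0 and 59.3 CPM inside and at 5.89, 7.04, 7.82 and 6.79 CPM outside. All 4 areas were higher inside, and the inside and outside levels did not overlap. The log2 difference was 3.02 ± 0.17 (SE, 4 areas; edgeR adjusted p = 1.2e-08), and the inside level of E14.5 replicate 1 rested on 12 UMIs.

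Fzd10, a Frizzled receptor, was the receptor with the largest rise in the same spots, at 215, 136, 192 and 172 CPM inside and 17.1, 22.5, 31.4 and 27.3 CPM outside. The lowest inside level was above the highest outside level, and the log2 difference was 2.78 ± 0.13 (edgeR adjusted p = 4.1e-09). Wnt3a, a close relative of Wnt3, was scarce, with 2, 9, 15 and 22 UMIs inside, that is 11.6, 5.90, 2.90 and 4.81 CPM against 0.524, 0.725, 1.09 and 0.733 CPM outside. It too was higher in all 4 areas (log2 difference 2.44 ± 0.39, edgeR adjusted p = 0.00018). Wnt6, a ligand known from surface ectoderm, rose by 2.24 ± 0.21 on the log2 scale, Wnt10b by 1.94 ± 0.18 and Wnt4 by 1.81 ± 0.15. Fzd6, the receptor known for hair orientation, rose by 1.70 ± 0.13, with 69.7, 38.7, 45.8 and 63.2 CPM inside against 18.7, 10.7, 16.0 and 20.9 outside. Among R-spondins, Rspo1 rose by 1.62 ± 0.17, from 6.94 to 13.6 CPM outside to 31.9 to 40.7 CPM inside.

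The 3 largest falls in surface epidermis were those of Fzd9 (log2 difference -1.35 ± 0.16, edgeR adjusted p = 1.1e-05), Fzd8 (-1.17 ± 0.16) and Rspo4 (-1.01 ± 0.36, adjusted p = 0.035). Fzd9 stood at 17.4, 12.5, 14.5 and 14.7 CPM inside and at 25.7, 40.1, 33.5 and 42.0 CPM outside. The fall of Rspo4 did not pass when spots of other regions were left out, without the area block, in DESeq2 or without E15.5 replicates 2,3,4. The basal epithelium markers were also 2.66- to 10.0-fold higher in these spots, and 79 of the 318 belonged to both regions. With the 202 spots that lay in no other region, all 14 rises passed again, where 2771 of the 13443 genes tested were higher.

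**Figure D2:**
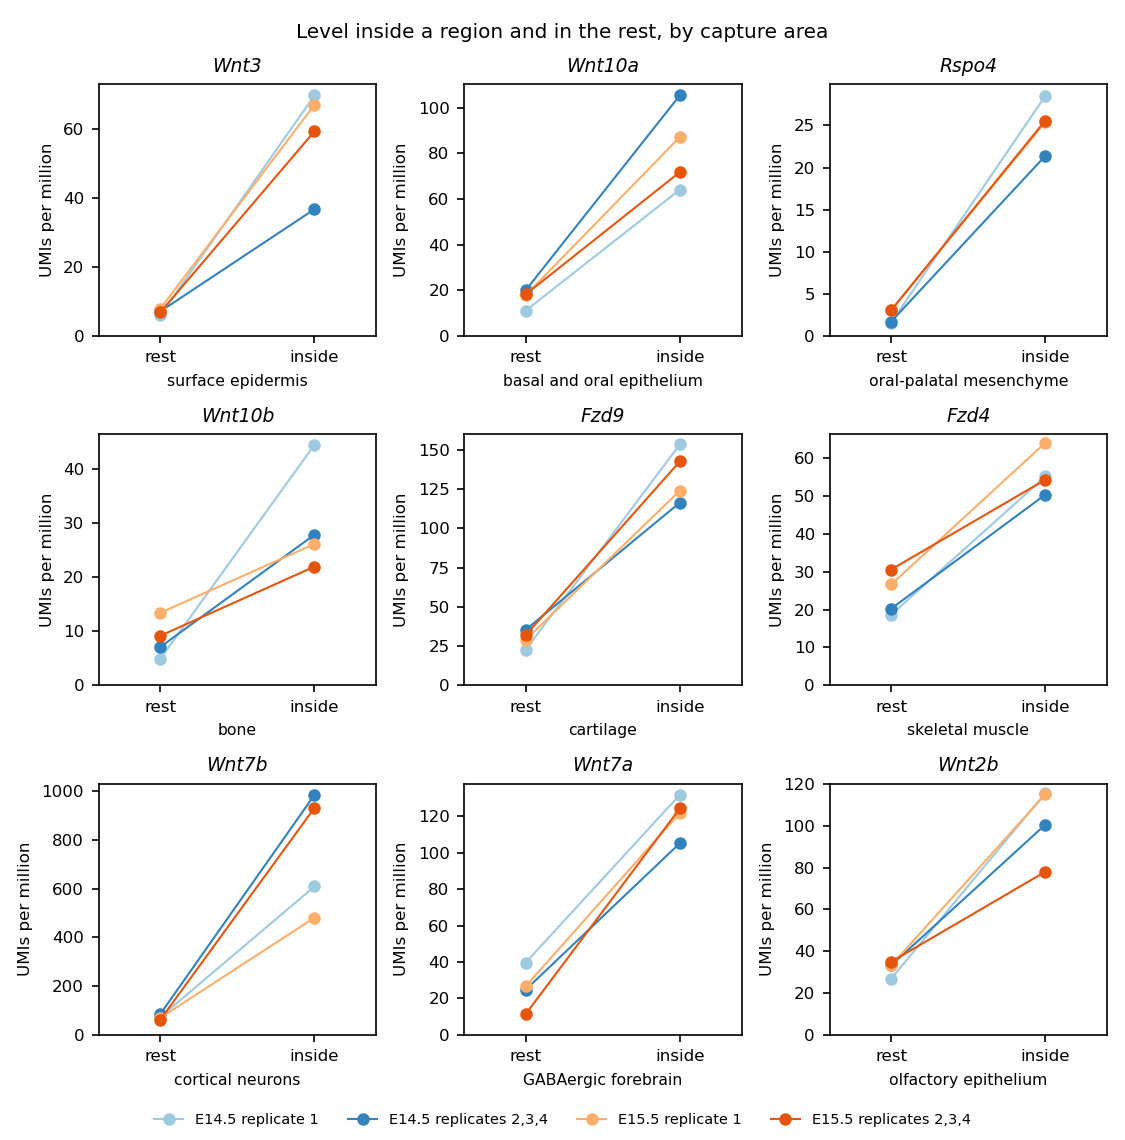
CPM of 9 members outside (rest) and inside the region in which each is described, with 1 line per capture area joining its outside and inside level on an axis from 0. Each panel shows 4 lines that rise, 1 for every area. The 9 members were picked as those with the largest rise in their region, so the panels add no support.

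Basal and oral epithelium, marked by Krt5, Krt14, Krt15 and Trp63, held 17 rises, the most of any region when shared spots are counted. Of 28 members, 17 were higher and 5 lower (all genes: 16.6% higher, 19.5% lower), with a median log2 difference of 0.63. Wnt10a, a ligand known from skin appendages and from missing teeth in human carriers of its mutations, stood at 64.1, 106, 87.3 and 71.9 CPM inside and 11.01, 19.99, 17.8 and 18.1 CPM outside. Inside and outside levels were well apart in every area (log2 difference 2.24 ± 0.12, edgeR adjusted p = 5.4e-05). Wnt4, a ligand known from kidney and gonad formation, stood at 245, 205, 216 and 183 CPM inside and 30.6, 44.1, 47.9 and 49.0 CPM outside. Its levels also did not overlap (log2 difference 2.22 ± 0.14, adjusted p = 6.8e-05). Fzd10 rose again, by 1.82 ± 0.20, with 128, 55.9, 165 and 91.9 CPM inside. In these spots 5 of 9 Frizzled receptors were higher (Fzd10, Fzd6, Fzd7, Fzd1 and Fzd2) and 3 lower. The oral-palatal mesenchyme markers were also 2.19- to 4.06-fold higher in the same spots, and the surface epidermis markers 2.19- to 15.2-fold. The part of mesenchyme in these rises was not tested. In the 143 spots that lay in no other region 14 of the 17 rises passed, with Rspo1, Wnt11 and Wnt3a lost. Of the 13416 genes tested in those spots, 1441 were higher and 2072 lower. Surface epidermis counted the same way had 15 rises. The log2 difference of Fzd10 in the 143 spots was 1.06 ± 0.15. The largest falls were those of Wnt7a (-1.59 ± 0.35), Fzd9 (-1.08 ± 0.20) and Fzd8 (-0.72 ± 0.15).

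Oral-palatal mesenchyme was set by Osr2, Pax9, Msx1 and Shox2, transcription factors of palatal and oral mesenchyme. Its spots were taken from the whole head by these genes, and no outline of the palate was used. Of 28 members, 14 were higher and 5 lower (all genes: 14.6% higher, 17.8% lower), with a median log2 difference of 0.52. It was the region with the most R-spondins higher, 3 of 4. Rspo4, an R-spondin known for its need in nail formation, stood at 28.5, 21.4, 25.4 and 25.6 CPM inside, from 19, 120, 62 and 92 UMIs, and at 1.56, 1.68, 3.05 and 3.03 CPM outside. The 4 inside levels lay close together and all were far above the outside levels (log2 difference 3.37 ± 0.22, edgeR adjusted p = 0.00018). Rspo2, which is needed for limb and lip formation, stood at 12.01, 4.28, 11.1 and 9.46 CPM inside and 3.59, 2.50, 3.65 and 5.76 CPM outside. It was higher in every area, with levels that overlapped between areas (1.08 ± 0.24, adjusted p = 0.016). Rspo1 rose by 0.96 ± 0.18, and Rspo3 did not pass.

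Among ligands, Wnt16, known for its role in cortical bone, stood at 28.5, 41.2, 30.3 and 43.1 CPM inside the oral-palatal spots and 5.14, 8.68, 10.3 and 14.2 CPM outside. Every inside level was above every outside level (log2 difference 1.87 ± 0.18, adjusted p = 0.00042). Wnt10a stood at 51.0, 83.8, 75.4 and 45.9 CPM inside and 10.2, 20.9, 19.7 and 20.2 CPM outside (1.78 ± 0.18). Wnt5a, a ligand of the planar polarity route needed for outgrowth of face and limbs, stood at 443, 437, 368 and 389 CPM inside and 94.8, 152, 141 and 178 CPM outside (1.52 ± 0.16, adjusted p = 0.00055). These ligands did not overlap between inside and outside in any pair of areas.

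Among receptors in the oral-palatal spots, Fzd1 stood at 396, 469, 521 and 332 CPM inside and 166, 176, 162 and 154 CPM outside (1.34 ± 0.11, edgeR adjusted p = 0.00029). Its nearest relatives Fzd7 (0.99 ± 0.12) and Fzd2 (0.57 ± 0.08) rose too, Fzd7 with 141 to 198 CPM inside against 69.8 to 87.7 outside and Fzd2 with 498 to 632 against 302 to 413. Of the falls, Wnt7a was the largest, at 3.00, 2.50, 9.43 and 4.45 CPM inside (2, 14, 23 and 16 UMIs) and 49.8, 30.4, 30.6 and 13.9 CPM outside (-2.52 ± 0.34, adjusted p = 0.0016). Fzd9 (-1.04 ± 0.17) and Wnt7b (-0.76 ± 0.17) followed.

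The basal epithelium markers were 3.11- to 6.70-fold higher inside the oral-palatal spots than outside, and 80 of the 318 spots belonged to both regions. In the 203 oral-palatal spots that lay in no other region, 13 of the 14 rises passed again, with Fzd10 lost, and all 5 falls. Of the 13533 genes tested in those spots, 1659 were higher and 2165 lower. The log2 difference there was 3.81 ± 0.22 for Rspo4 (edgeR adjusted p = 1.7e-05), 1.67 ± 0.22 for Wnt16, 1.60 ± 0.16 for Wnt5a and 1.57 ± 0.19 for Wnt10a. The part of epithelium in the remaining differences was not tested.

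**Figure D3:**
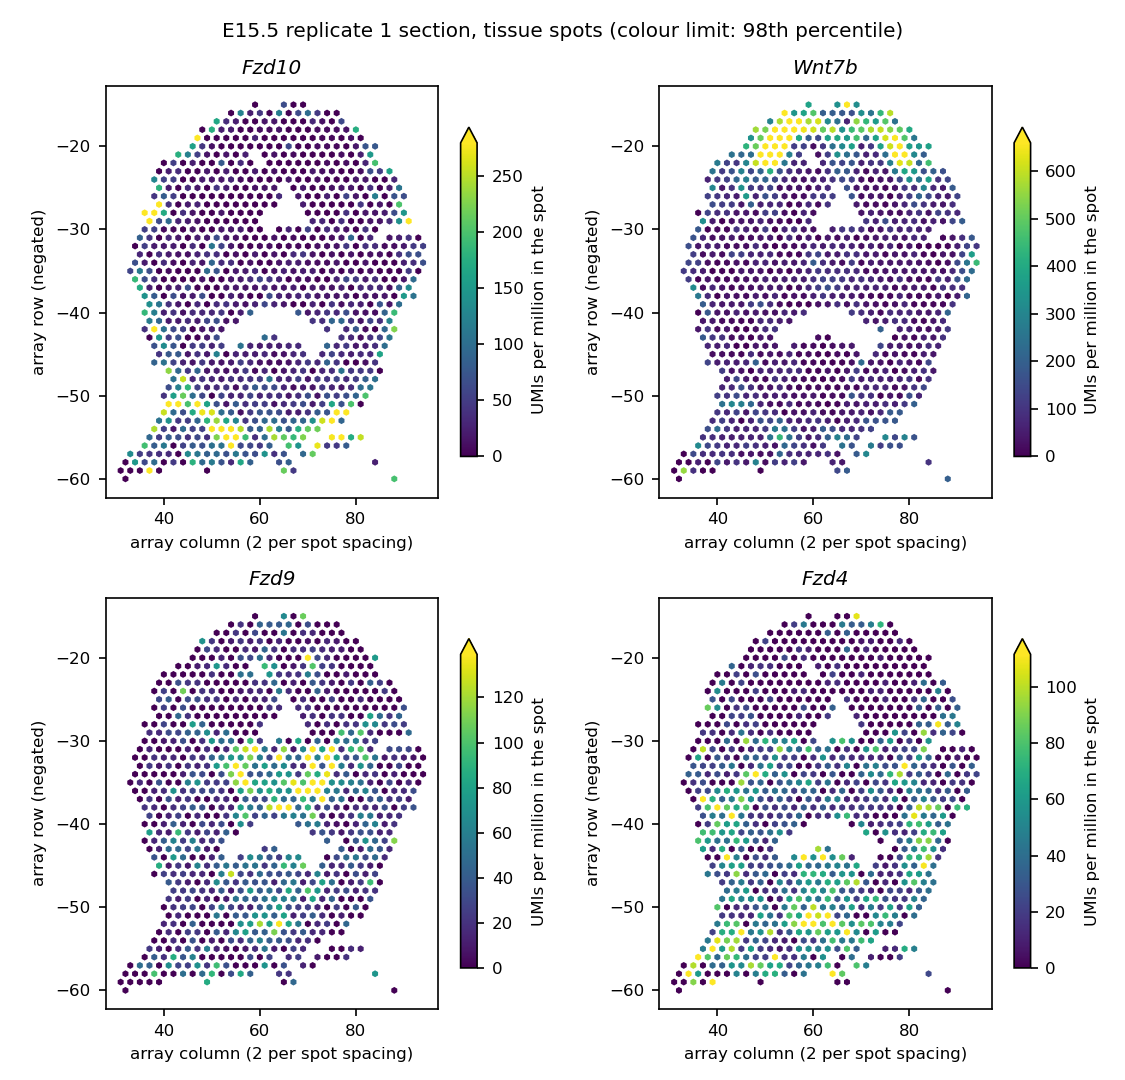
Levels of Fzd10, Fzd9, Fzd4 and Wnt7b in each spot of the E15.5 replicate 1 section, as CPM in the spot, on axes of array row and column; colours end at the 98th percentile of the gene. Fzd10 lay along the outer edge of the section, Wnt7b in the rows at the top, Fzd9 in the middle rows and Fzd4 in lower and lateral spots.

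Bone spots, marked by Sp7, Ibsp, Alpl and Ifitm5, had 5 members higher and 8 lower of 28 (all genes: 22.6% higher, 28.7% lower). Wnt10b, a ligand known to favour bone formation, led them, at 44.4, 27.8, 26.1 and 21.9 CPM inside and 4.90, 7.08, 13.4 and 9.15 CPM outside. Each inside level was above each outside level (1.73 ± 0.23, edgeR adjusted p = 0.00013). Fzd9, the receptor known for a role in bone-forming cells, rose by 0.62 ± 0.13 and Wnt16 by 0.56 ± 0.17. The falls were led by Wnt7a (-2.07 ± 0.24), Wnt7b (-1.10 ± 0.14) and Fzd3 (-1.08 ± 0.12). Scaling to library size without TMM moved the median of all genes in bone by -0.19 and cut the share of calls that were higher from 44.1% to 22.1%. Members higher then went from 5 to 2, with Wnt10b and Fzd9 left, and members lower from 8 to 14.

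Cartilage spots, marked by Col2a1, Acan, Matn1 and Col9a1, split the families. No Wnt ligand of 14 was higher there and 9 were lower, while 4 of 9 Frizzled receptors were higher, and over all 27 members 5 were higher and 13 lower (all genes: 14.1% higher, 17.1% lower). Fzd9 stood at 153, 116, 124 and 143 CPM inside and 22.7, 35.4, 29.0 and 32.0 CPM outside. The levels did not overlap and the areas were close to each other (log2 difference 2.11 ± 0.13, edgeR adjusted p = 1.1e-05). Rspo3, the R-spondin known for vessel development, rose by 0.72 ± 0.14, with 64.9, 37.5, 44.3 and 58.4 CPM inside and 52.1, 24.2, 36.3 and 26.7 CPM outside. Fzd7 (0.65 ± 0.13), Fzd2 (0.55 ± 0.08) and Fzd1 (0.42 ± 0.08) rose as well. The largest falls were those of Rspo4 (-1.80 ± 0.40), Wnt3 (-1.31 ± 0.24) and Fzd10 (-1.23 ± 0.21).

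Skeletal muscle spots, marked by Myh3, Myh8, Tnnt3 and Acta1, also had no Wnt ligand higher, with 4 members higher and 13 lower of 27 (all genes: 21.7% higher, 26.7% lower). All 4 rises were receptors. Fzd4, known as the receptor of norrin in retinal vessels, stood at 55.2, 50.4, 64.1 and 54.3 CPM inside and 18.6, 20.2, 26.6 and 30.6 CPM outside. It was higher inside in every area, with no overlap (1.31 ± 0.12, edgeR adjusted p = 1.6e-05). Fzd9 (0.76 ± 0.14), Fzd8 (0.51 ± 0.16) and Fzd7 (0.39 ± 0.12) were the other rises. Without TMM the median of all genes in muscle moved by -0.16, the share of calls that were higher fell from 44.9% to 26.2%, and Fzd7 no longer passed. Wnt7a was nearly absent from muscle spots, with 0, 11, 16 and 16 UMIs, where a count of 0 allows up to 3 UMIs.

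In the brain the pattern turned over. In cortical neuron spots, marked by Neurod6, Neurod2, Tbr1 and Fezf2, 22 of 27 members were lower and 4 higher (all genes: 27% higher, 42.6% lower), and the median log2 difference was -1.57 for members against -0.17 for all genes. Wnt7b, a ligand known from forebrain and vascular development, stood at 609, 985, 481 and 932 CPM inside and 73.2, 85.6, 70.0 and 62.5 CPM outside. Its levels did not overlap in any area (log2 difference 3.35 ± 0.18, edgeR adjusted p = 2.4e-05). Rspo3 stood at 156, 50.8, 131 and 69.7 CPM inside and 27.2, 23.9, 25.4 and 29.0 CPM outside. All areas were higher inside, with both replicate 1 areas above the other areas (1.93 ± 0.27, adjusted p = 0.00049). Fzd3, a receptor known for axon guidance, stood at 193, 143, 185 and 197 CPM inside and 119, 74.7, 88.9 and 74.8 CPM outside (1.04 ± 0.11). Wnt7a was the remaining rise.

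The deepest falls in cortical neurons were those of Rspo4, Wnt10a (-3.11 ± 0.28) and Wnt2b (-2.78 ± 0.22). Rspo4 had 1, 0, 1 and 0 UMIs in these spots against 2.80 to 4.30 CPM outside (edgeR adjusted p = 0.00028), too few for a size of the fall. Wnt10a had 4, 18, 15 and 0 UMIs inside. The E15.5 replicates 2,3,4 area held 22 cortical spots, against 74 to 121 in the other areas.

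GABAergic forebrain spots, marked by genes of inhibitory neurons such as Gad1, Gad2 and Slc32a1, had 2 members higher and 23 lower of 27 (all genes: 33% higher, 37.8% lower), with a median of -2.28 for members and -0.05 for all genes. Wnt7a stood at 132, 105, 122 and 124 CPM inside and 39.7, 24.8, 26.8 and 11.5 CPM outside. The inside levels of the 4 areas lay close together and did not overlap with those outside (2.47 ± 0.26, edgeR adjusted p = 0.00056). Fzd3 was the other rise (0.95 ± 0.19, adjusted p = 0.0047), at 161, 118, 164 and 217 CPM inside. Wnt7b, the closest relative of Wnt7a, fell by 1.03 ± 0.21 on the log2 scale in these spots, at 47.9, 73.7, 60.9 and 30.2 CPM inside and 191, 122, 115 and 67.1 CPM outside. It was lower inside in each area, with levels that overlapped between areas. Wnt2, Wnt10b and Wnt10a were lower as well, on too few UMIs for a size or an order of the falls. Wnt2 had 4 UMIs inside, all in E14.5 replicates 2,3,4, Wnt10b had 3, 0, 0 and 1, and Wnt10a had 3, 11, 1 and 1. All 4 R-spondins were lower.

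Radial glia spots, marked by Hes5, Fabp7, Pax6 and Neurog2, had 3 members higher and 20 lower of 27 (all genes: 27.1% higher, 30.7% lower). The rises were Wnt7a (1.21 ± 0.22, edgeR adjusted p = 0.0019), Fzd8 (1.01 ± 0.20, adjusted p = 0.0034) and Fzd3 (0.88 ± 0.13). Fzd8, a receptor known from the anterior neural plate, stood at 144, 62.1, 119 and 54.8 CPM inside and 49.1, 49.0, 47.7 and 35.7 CPM outside, with both replicate 1 areas the higher inside. Wnt10b, Rspo4 and Rspo2 were lower, on few UMIs inside (1, 7, 13 and 1 for Wnt10b, 1, 1, 6 and 0 for Rspo4, and 4, 2, 5 and 2 for Rspo2). In these spots the retina markers were 5.85- to 18.2-fold higher, and 46.2% of the spots belonged also to the retina region. In the 108 radial glia spots that lay in no other region the rises were larger, at 2.37 ± 0.26 for Wnt7a, 2.07 ± 0.20 for Fzd8 (edgeR adjusted p = 5.2e-05) and 1.21 ± 0.16 for Fzd3. There Fzd9 also passed as higher (0.48 ± 0.18, edgeR adjusted p = 0.048), and 17 of the 20 falls passed again, with Fzd1, Rspo3 and Wnt9a lost. Of the 13147 genes tested in those spots, 3215 were higher and 4176 lower.

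Retina spots, marked by genes such as Six6, Rax and Atoh7, had Fzd3 (0.41 ± 0.14, adjusted p = 0.06) and Wnt5b (0.39 ± 0.09, adjusted p = 0.016) higher and 15 of 27 members lower (all genes: 18.3% higher, 21.7% lower), all 4 R-spondins among them. In the 149 retina spots that lay in no other region 9 of the 15 falls passed again. No share of all genes is given for those spots. Rspo3 and Rspo4 were among the 9, while Rspo1, Rspo2, Wnt4, Wnt7a, Wnt10b and Fzd10 were lost, and Wnt2b passed as higher (0.56 ± 0.13, edgeR adjusted p = 0.0104).

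Olfactory epithelium spots, marked by Omp, Gfy, Stoml3 and Gng13, had 7 members higher and 13 lower of 27 (all genes: 17.6% higher, 15% lower). Wnt2b, a ligand known from the eye margin and lung bud, stood at 116, 101, 115 and 78.1 CPM inside and 26.9, 33.3, 33.3 and 35.0 CPM outside. No inside level reached down to an outside level (1.61 ± 0.15, edgeR adjusted p = 0.00065). Fzd9 (1.10 ± 0.11) stood at 47.0, 70.4, 78.5 and 86.0 CPM inside, while the cartilage markers were 2.67- to 4.15-fold higher in these spots, 45 of which belonged to both regions. In the 241 spots that lay in no other region Fzd9 was higher by 0.93 ± 0.10 on the log2 scale (edgeR adjusted p = 0.0012). Of the 7 rises that of Fzd1 was lost there, and no share of all genes is given for those spots. Fzd8 rose by 0.78 ± 0.16.

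Endothelium spots, marked by Cdh5, Pecam1, Kdr and Emcn, had the smallest folds of their own markers. At E14.5 they were shallow, with medians of 2378 and 2805 UMIs per spot. Of 27 members 4 were higher and 5 lower (all genes: 9.74% higher, 9.43% lower). Wnt2b stood at 72.2, 75.6, 64.0 and 76.1 CPM inside and 29.6, 36.8, 36.7 and 36.2 CPM outside, without overlap (1.03 ± 0.12, edgeR adjusted p = 0.002). Wnt11 (0.75 ± 0.23, adjusted p = 0.068) and Fzd4 (0.75 ± 0.20, adjusted p = 0.039) rose by less. Choroid plexus spots could be compared in only 2 areas: 0 of 29 members passed in edgeR (all genes: 0% higher, 0% lower), 0 members had an unadjusted p under 0.05, and over all genes 372 did, while DESeq2 called 137 genes and 0 members.

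The other genes of the pathway were read from a list of 39 in 5 groups (co-receptors and alternative receptors, ligand secretion, cytoplasmic transducers, feedback and target genes, planar polarity core), 38 of which could be tested. Their shares are read against those of all genes tested in the same region. In basal and oral epithelium 20 were higher and 4 lower (52.6% and 10.5%, all genes 16.6% and 19.5%), in oral-palatal mesenchyme also 20 and 4 (all genes 14.6% and 17.8%), and in surface epidermis 19 and 8 (50% and 21.1%, all genes 25% and 24.6%). All 5 of the feedback and target genes were higher in basal and oral epithelium: Lef1 (log2 difference 1.38 ± 0.11), Sp5 (1.26 ± 0.22), Axin2 (1.16 ± 0.12), Nkd2 (0.74 ± 0.28) and Nkd1 (0.54 ± 0.09). In oral-palatal mesenchyme and in surface epidermis 4 of these 5 were higher, with Nkd2 not passing in either. The 80 spots shared by basal and oral epithelium and oral-palatal mesenchyme were kept in these counts. In bone none of the 5 was higher and Axin2 was lower. In muscle 3 were lower and Nkd1 higher, and in olfactory epithelium 4 were lower and Nkd2 higher. In cortical neurons 8 of the 38 were higher and 24 lower (21.1% and 63.2%, all genes 27% and 42.6%), and in GABAergic forebrain 9 and 26 (23.7% and 68.4%, all genes 33% and 37.8%). None of the 5 feedback and target genes was higher in either region. Axin2 had a log2 difference of -0.49 ± 0.09 and Lef1 of -1.03 ± 0.20 in cortical neurons. Wls, the carrier of Wnt proteins to the cell surface, rose in basal and oral epithelium (0.93 ± 0.15) and fell in cortical neurons (-1.93 ± 0.19). Celsr3, a polarity cadherin of neurons, went the other way, with 2.01 ± 0.21 in cortical neurons and -2.82 ± 0.30 in basal and oral epithelium. In bone 14 were higher and 9 lower (36.8% and 23.7%, all genes 22.6% and 28.7%), in radial glia 8 and 19 (21.1% and 50%, all genes 27.1% and 30.7%), in muscle 7 and 14 (18.4% and 36.8%, all genes 21.7% and 26.7%) and in retina 5 and 14 (13.2% and 36.8%, all genes 18.3% and 21.7%). In cartilage the counts were 9 and 6 (23.7% and 15.8%, all genes 14.1% and 17.1%), in olfactory epithelium 7 and 8 (18.4% and 21.1%, all genes 17.6% and 15%), and in endothelium 3 and 3 (7.89% each, all genes 9.74% and 9.43%), and none was called in choroid plexus.

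Between stages, members of the families were compared over whole tissue first. Of 30 members tested, 0 passed an adjusted p of 0.1 in edgeR (all genes: 0% of 15609), 3 had an unadjusted p under 0.05, as had 930 of all genes, and DESeq2 called 0 members and 37 genes. Fitted differences were above 0 for 21 members and below for 9, with a median log2 difference of 0.27 against -0.0016 for all genes. Fzd10 had the smallest p, at 19.3 and 24.0 CPM at E14.5 and 43.8 and 34.8 CPM at E15.5 (log2 difference 0.79 ± 0.28, edgeR adjusted p = 0.769). Wnt9a stood at 2.40 and 2.50 CPM at E14.5 and 4.97 and 4.85 CPM at E15.5 (0.93 ± 0.36). Wnt7b stood at 178 and 120 CPM at E14.5 and at 114 and 66.4 CPM at E15.5 (-0.78 ± 0.32). Rspo1 (0.69 ± 0.31) and Wnt10b (0.75 ± 0.34) completed the 5 smallest p, each with the same adjusted p. These 5 genes were picked by p among 2 areas per stage, so the gap between their stage levels adds no support. The sections also held tissue in different amounts. Cortical neuron spots were 10.2% of E15.5 replicate 1 and 1.13% of E15.5 replicates 2,3,4. Surface epidermis spots were 3.89% and 1.95% of the areas at E14.5 and 10.3% and 6.56% at E15.5. Oral-palatal mesenchyme spots were 7.14% and 6.06% at E14.5 and 3.44% and 3.33% at E15.5. Of the 5 genes, Fzd10, Rspo1 and Wnt10b were also higher in surface epidermis spots. For them stage and the amount of this tissue cannot be told apart.

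**Figure D4:**
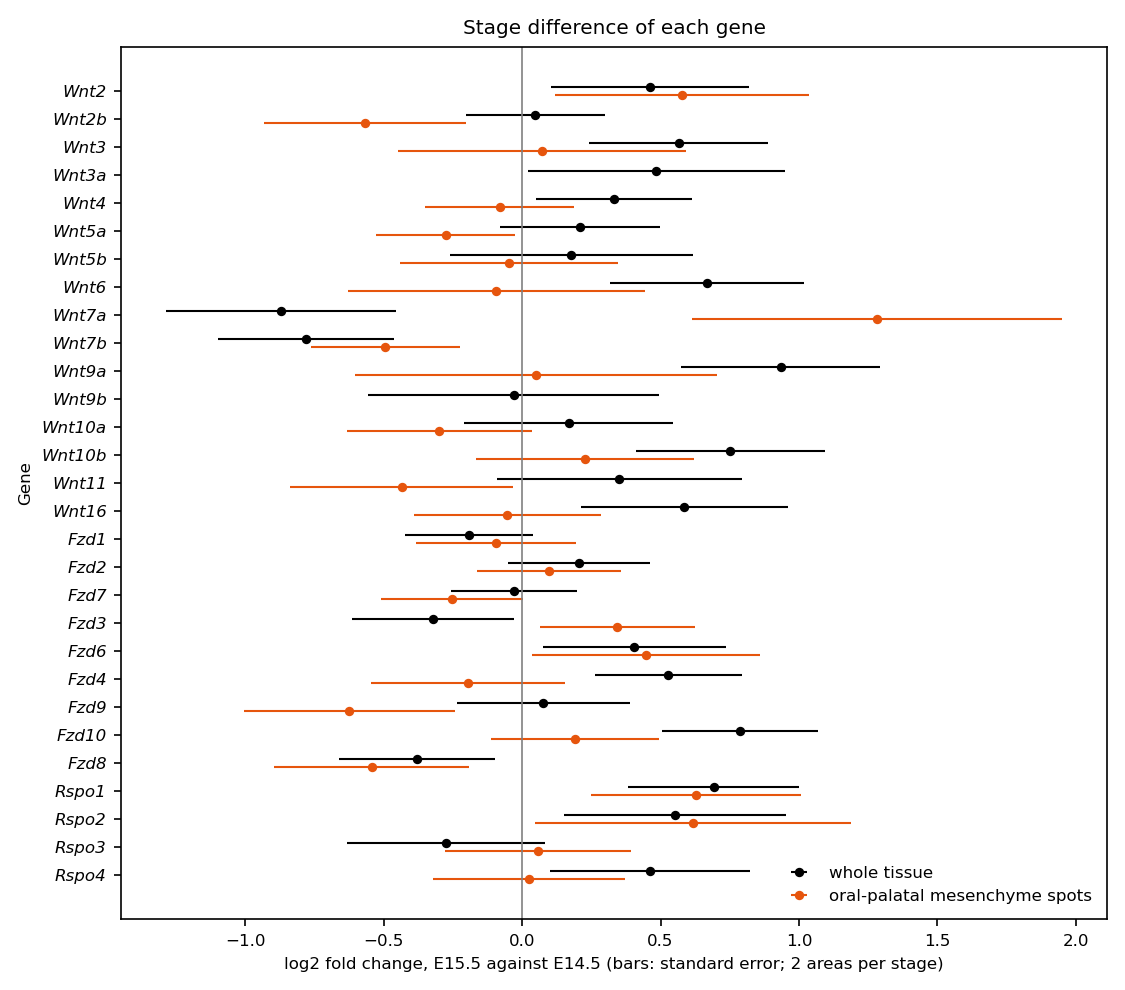
Log2 difference between E15.5 and E14.5 with its SE for each member tested, over whole tissue and over oral-palatal mesenchyme spots, 2 capture areas per stage. None of the members passed an adjusted p of 0.1 in either comparison.

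Within the oral-palatal mesenchyme spots 0 of 27 members passed in edgeR (all genes: 0% of 12091), 0 members had an unadjusted p under 0.05 against 172 of all genes, and DESeq2 called 0 members and 0 genes. For the members that led this region, the fitted log2 difference was 0.02 ± 0.35 for Rspo4, -0.05 ± 0.34 for Wnt16 and -0.28 ± 0.25 for Wnt5a, errors that allow a change in either direction. The smallest p were those of Wnt7a (1.28 ± 0.67, from 2 and 14 UMIs at E14.5 and 23 and 16 at E15.5), Wnt7b (-0.49 ± 0.27), Rspo1 (0.63 ± 0.38), Fzd9 (-0.62 ± 0.38) and Wnt2b (-0.57 ± 0.36).

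Over the 12 regions with enough spots in each area, 286 stage tests of members gave 0 calls in edgeR (all genes: 0.00694% of tests). Of the 286, 15 had an unadjusted p under 0.05 in edgeR. Among all genes such p numbered from 90 of 12671 in cartilage to 548 of 12738 in skeletal muscle. Fits with an area left out keep 1 area of a stage, so their calls are not read as stage differences. With an area left out the count was at most 1. Without E14.5 replicate 1 the call was Fzd6 in basal and oral epithelium, and without E14.5 replicates 2,3,4 it was Wnt7a in retina.

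Between areas of the same stage Wnt5b, chosen after its values were seen, stood at 19.4 and 38.3 CPM at E14.5 and 23.0 and 46.2 CPM at E15.5. It was lower in the replicate 1 area of both stages, with log2 differences from the other area of -0.977 and -1.005. At single stages other members were further apart, among them Wnt11 at E14.5 (-1.274) and Wnt7a at E15.5 (1.136).

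Likeness of patterns across spots was described by Pearson r of log levels within each area, averaged over the 4 areas, for the 26 members with at least 1000 UMIs (325 pairs). Spots share a library, and r grows with depth, so the values carry no test. The median over pairs was 0.0568. Fzd7 and Fzd2 were the most alike (mean r 0.42, from 0.259 to 0.589 by area), followed by Fzd1 and Fzd2 (0.37), Wnt4 and Fzd10 (0.37), Fzd10 and Wnt5a (0.36), Wnt10a and Wnt4 (0.36) and Wnt7a and Fzd3 (0.35). Fzd7 and Wnt7a (-0.30) and Wnt7a and Wnt5a (-0.29) were the least alike. With each spot thinned to 5000 UMIs, Fzd7 and Fzd2 had a mean r of 0.137 and the median over pairs was 0.0115.

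Pairs of close paralogs ranged from -0.0885 (Fzd10 and Fzd9) to 0.42 (Fzd7 and Fzd2), with a median of 0.142 over 11 pairs against 0.0535 over the 313 other pairs. Wnt7a and Wnt7b had a mean r of 0.142. Several members sit next to each other in the genome: on GRCm38, Wnt6 ends 6193 bases before Wnt10a on chromosome 1, Wnt9b and Wnt3 are 24328 bases apart and Wnt3a and Wnt9a 16175 bases apart on chromosome 11, and Wnt10b and Wnt1 are 11706 bases apart on chromosome 15. Of these pairs, Wnt6 and Wnt10a alone had enough UMIs in both genes, with a mean r of 0.173. Their regions overlapped in part: both were higher in surface epidermis, basal and oral epithelium and oral-palatal mesenchyme, while Wnt10a was also higher in bone.

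**Figure D5:**
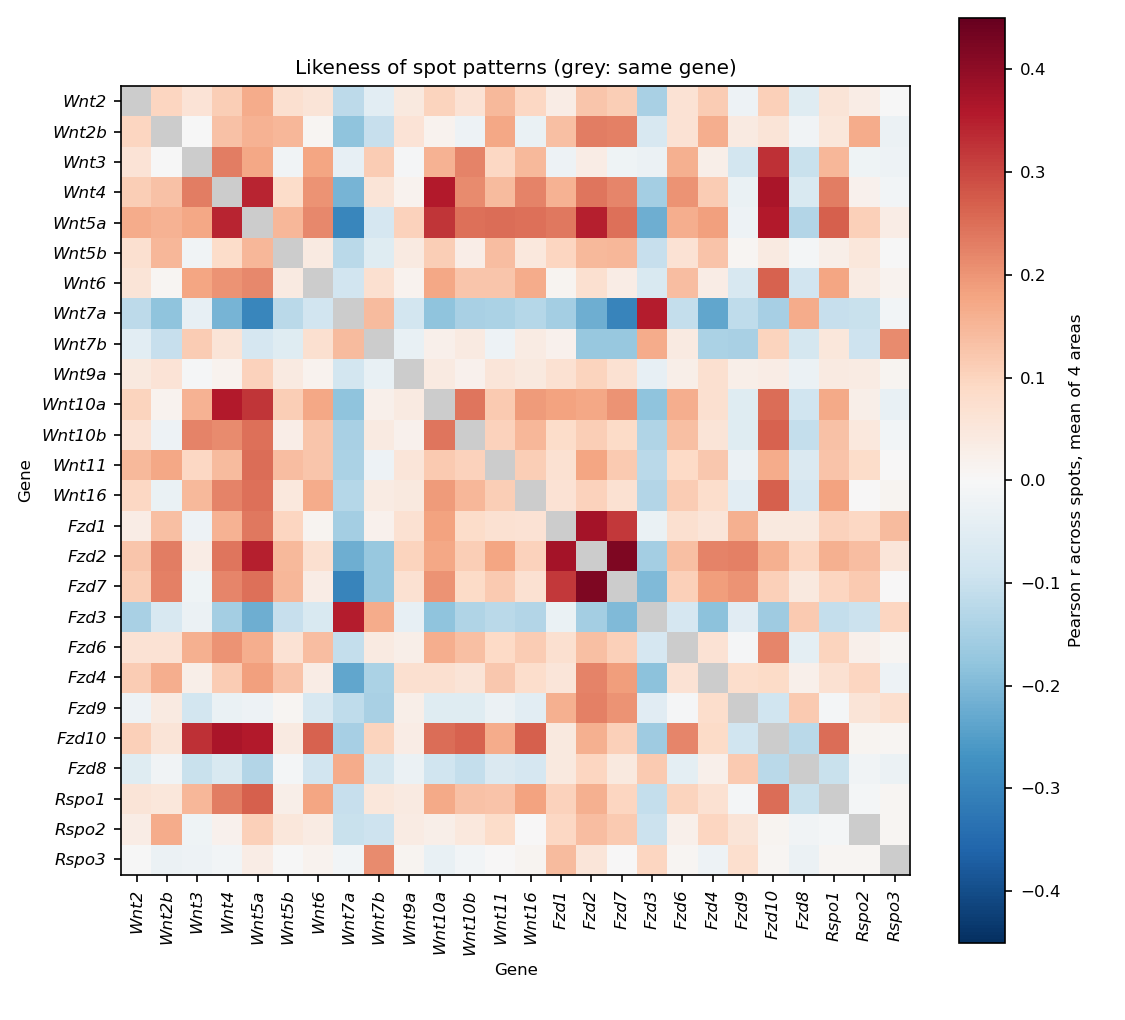
Mean Pearson r over the 4 capture areas for each pair of the 26 members with at least 1000 UMIs. Colour gives r, and blocks of Fzd1, Fzd2 and Fzd7, of epithelial ligands with Fzd10, and of Wnt7a with Fzd3 stand out, Wnt7a being below 0 with most other members.

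Among all genes with at least 1000 UMIs, some of those most like a leading member were as follows. Wnt3 was most like Krtdap (mean r 0.397) and Krt10, and Wnt10a most like Krt5 (0.467), Krt15 and Krt14. Wnt16, which led the ligands in oral-palatal mesenchyme, was most like Krt14 (0.344), Krt5 and Krt15, and Wnt10b, which led in bone, most like Krt14 (0.340), Pkp1 and Zfp750; all of these are epithelial genes. Fzd9 was most like the cartilage link protein gene Hapln1 (0.403), Susd5 and Cnmd, and Fzd4 most like Dlk1 (0.402), Itm2a and Tpm2. Wnt7b was most like Neurod6 (0.505), Neurod2 and Mpped1, Wnt7a like Adgrb1 (0.571) and Kcnk10, and Fzd3 most like Sox11 (0.550), Tubb3 and Rundc3a. Wnt2b, which led in olfactory epithelium, was most like Slc26a7 (0.433), Sulf1 and Fbn2, none of which is on the olfactory marker list.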

How the data were processed

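Sections of wild-type mouse heads were profiled by Visium for formalin-fixed tissue in 4 capture areas, 2 at E14.5 and 2 at E15.5. The files the authors deposited hold unnormalised counts of UMIs for every gene in every barcode, and the positions of the spots. Per the file headers, Space Ranger 1.3.1 made both replicate 1 tables and version 2.0.0 both other tables, and mm10 is the build in the submitters' processing notes. Tissue spots were taken from the position tables (6357 spots).

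Members and gene lists were chosen with earlier results of these data known. Members were all genes with a symbol of Wnt, Fzd or Rspo and a digit. Those with at least 100 UMIs were described. In each region the text gives up to 3 members past the threshold with the largest rise and, for epithelial, mesenchymal and brain regions, up to 3 with the largest fall; in a stage comparison it gives those past the threshold or else the 5 smallest p. Other members named with a difference in a region were chosen after their values were seen.

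Regions were the spots above the 95th percentile of the summed UMI share of a marker list, pooled over areas, used where an area held at least 10 of them; a spot may belong to several regions, and spots can hold several cell types. Results that rest on 1 further marker list, and some genes among those most like a member, are not reported here. UMIs were summed per area, or per area inside and outside a region. Sums were tested with edgeR 4.0.16 (TMM, filterByExpr, glmQLFit and glmQLFTest, R 4.3.3), two-sided, with Benjamini-Hochberg adjustment over all genes tested and a threshold of 0.1, with the area as a block for regions. DESeq2 1.42.0 was an alternative, as were other percentiles, scalings, filters and left-out areas. Gene calls per spot were not treated as replicates. Errors are SEs of the fit, derived from the log2 difference and its F value. The fits were tested on simulated data. The whole-tissue stage fit recovered 24.6% of genes changed by 1 on the log2 scale and 84.6% of those changed by 2. The oral-palatal stage fit recovered 33.9% and 92.4%. Of the calls 16.0% and 8.86% were false. A stage change of 1 on the log2 scale would thus mostly be missed. The oral-palatal region fit recovered 87.9% of changes of 1, with 7.5% of calls false. Totals per area ranged from 15438992 to 109127953 UMIs, which sets the precision of the scarce members. Pearson r was computed on log values scaled to 10000 UMIs per spot. Promoters and gene positions came from RefSeq and GENCODE M21 tables of GRCm38. Sections were told apart by gaps between spots, and 88 spots in small pieces were left out of section values.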

Additional observations from a re-analysis of the deposited data

Results flagged for a closer look

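For each gene with at least 100 UMIs, the 4 sections of each stage were compared, 58 groups in all, of which about 5% would hold a section far from the others by chance; 3 of the 4 sections share a library. In 5 groups 1 section stood apart. Fzd8 was at 54.4 CPM in the E15.5 replicate 1 section and at 34.4 to 37.6 CPM in the other 3. Wnt5b was at 23.0 CPM in the E15.5 replicate 1 section against 45.8 to 47.4 CPM, and Wnt11 at 4.73 CPM in the E14.5 replicate 1 section against 10.99 to 11.9 CPM. In the shallow E14.5 section A, with a median of 10037.5 UMIs per spot, Wnt9a was at 3.03 CPM against 2.40 to 2.45 CPM and Wnt9b at 2.49 CPM against 0.324 to 0.604 CPM.

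A few barcodes outside the tissue carried counts. In E14.5 replicates 2,3,4 there were 8 such barcodes with 209555 UMIs, of which 264 were on members, or 1259.8 CPM against 1401.8 CPM in tissue spots. In E15.5 replicates 2,3,4 there were 11 with 352936 UMIs, of which 553 were on members, or 1566.9 CPM against 1416.4 CPM.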

How the results depend on the processing

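The stage comparisons called 0 members over whole tissue and 0 in oral-palatal mesenchyme under every alternative run, areas left out in turn included (0 to 0). The count of stage calls within regions was also 0, and ranged from 0 to 1 when each area was left out in turn, being 1 without E14.5 replicate 1 and 1 without E14.5 replicates 2,3,4. The cause was not tested.

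Rises of members in regions numbered 81, against 64 without the area block and 94 at the 90th percentile, and 67 to 88 with each area left out. Falls numbered 148, and 119 to 157 with each area left out. Calls of all genes moved too. In oral-palatal mesenchyme 1997 of 13640 genes were higher, 859 without the area block and 2076 of 13863 at the 90th percentile. For the regions together no shares of all genes are given under these settings. The median likeness of pairs, 0.0568, was 0.0115 in spots thinned to 5000 UMIs and 0.0521 to 0.0644 with each area left out.

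Of 943 alternatives for the 68 member values named by rule, 911 kept direction and side of the threshold, 31 kept direction only and 1 changed sign, that of Wnt11 in endothelium at the 98th percentile (-10.6, adjusted p = 0.654 in edgeR).

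Areas of the 2 stages share replicate labels but nothing says they were paired, and the deviations of same-numbered areas correlated at 0.2461 over 15609 genes. With the replicate label as a block the stage calls stayed at 0 members over whole tissue, 0 in oral-palatal mesenchyme and 0 within regions, and 10 genes of all were called in oral-palatal mesenchyme, against 0 without it.

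Depth limits the scarce members: Wnt3a and Wnt9b had 264 and 169 UMIs in all.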
